A study of Rattus norvegicus with 2 samples.

Results

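Molecular chaperones of the heat shock protein and chaperonin families were followed in 2 mRNA libraries of cultured rat cortical neurons, 1 from cells that received a control plasmid and 1 from cells that received an RNAi plasmid against PIWIL1. A gene was taken as a member when its rat symbol began with Hsp and a further letter or digit, with Dnaj, or with Cct and a digit from 2 to 8, or was Tcp1. This gave 66 of the 9894 genes listed in either library. Of these, 64 were listed in the control library and all 66 in the RNAi library. For 63 members the symbol came from the RefSeq accession and for 3 (Dnajc6, Hspa1b and Hspa12b) from the protein description. The gene once called Hspb11 now carries the symbol Ift25 and was not a member.

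The cells were dissociated from the cortex of Sprague-Dawley rats at embryonic day 16, electroporated with either plasmid and cultured for 48 h in a serum-containing medium. Both groups went through dissociation and electroporation, so these treatments are shared. The siRNA sequences of the study were expressed from a pSuper vector, and its sequenced siRNA is not identified in the sources used here. The labels do not say whether transfected cells were separated from the others, or from how many embryos each culture came. There was 1 library per group, so no difference below has a replicate check. No row was matched to Piwil1 by symbol, and its knockdown was therefore not checked in these libraries.

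Chaperones bind unfolded or partly folded proteins and keep them from aggregating. Hsp70 proteins work in cycles of ATP hydrolysis that are started by J-domain proteins (the Dnaj genes) and reset by exchange factors such as the Hsp110 proteins. Hsp90 acts late, on nearly folded clients such as kinases and steroid receptors. Hsp60 with its lid Hsp10 folds proteins inside mitochondria. The cytosolic chaperonin TRiC is a double ring in which each ring holds 8 different subunits (Tcp1 and Cct2 to Cct8), and actin and tubulin are its best known clients, which makes it of interest in neurons that are building an axon.

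Digital gene expression profiling, the method used, reads a 21-base tag that starts at a CATG site of the transcript. Each value below is a number of copies of a gene's tags, or those copies scaled to the clean tags of the library (TPM, which here takes no account of gene length). A tag is called abundant when its copies in the 2 libraries summed to 20 or more. The following tags carry the main observations. The CATG site and the bases at the tag's end are in capitals, because the ratio between the libraries varied with that end, and sites are counted from the 3′ end of the transcript.

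Cct8, site 6: CATGgtgaagagttgtgttTG
Cct8, site 1: CATGatttttttctgtcatTT
Cct8, site 7: CATGgcaaaaccagctggtGG
Cct3, site 1: CATGaaagagctgggtattTG
Cct3, site 3: CATGccttgacagaaaaatCT
Dnajc10, site 3: CATGatggactcttcccatTT
Dnajc10, site 6: CATGtattttattttgactAT
Hsp90aa1, site 2: CATGtgatactgtgatactAT
Hsp90ab1, site 1: CATGtctacaagaatctctTC
Hsp90b1, site 1: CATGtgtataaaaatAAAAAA
Hspa8, site 1: CATGgaataataaaactatTT
Hspe1, site 1: CATGcctcccttttataatAA
Dnajb13, site 1: CATGgtggttcacaaccatCT

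The control library held 1947600 copies on genes and the RNAi library 1865913. Their clean tags, recovered from the TPM values, numbered 3386865 and 3303360. For scale, 3 copies correspond to 0.886 and 0.908 TPM. No such floor was applied, and genes with 2 copies were counted as listed. Of 8 markers of cortical neurons, 7 were listed in each library, and their summed level was 4263 TPM in the control and 3819 TPM in the RNAi library. Tubb3 stood at 454 and 323 TPM and Bcl11b was not listed under that symbol in either. Progenitor markers (5 of 6 listed in each library) summed to 968 and 1269 TPM, of which Vim made 790 and 1127 TPM. The other 4 listed progenitor markers were lower in the RNAi library, Sox2 at 94.5 and 78.7, Pax6 at 24.5 and 20.6, Nes at 53.4 and 37.8 and Hes5 at 6.50 and 4.54 TPM. Fibroblast markers (3 of 3) summed to 431 and 414 TPM, astrocyte markers (3 of 4) to 86.5 and 76.6 TPM, microglial markers (2 of 4, Cx3cr1 and Itgam not listed) to 14.2 and 16.04 TPM, and those of the oligodendrocyte lineage (4 of 4 and 3 of 4) to 5.32 and 5.75 TPM. No endothelial marker of 3 was listed in either library. Stmn2 stood at 2210 and 1719 TPM and Gap43 at 788 and 1072 TPM. Dcx stood at 395 and 413 TPM, Neurod6 at 376 and 257, Tbr1 at 25.1 and 25.4 and Slc17a6 at 14.8 and 9.08. The neuronal markers thus ranged from high to low or not listed, and Stmn2 made the largest part of their sum. The progenitor sum was mostly Vim and the fibroblast sum mostly Col1a1 (370 and 346 TPM). Col1a2 stood at 57.0 and 62.7 TPM and Dcn at 4.13 and 5.45 TPM. In such bulk RNA fewer cells of a type and less RNA per cell cannot be told apart, and the part of cell composition in the differences below was not tested.

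The members together held 48462 copies in the control library, 2.49% of copies on genes (95% Wilson interval 2.47% to 2.51%), and 44624 copies in the RNAi library (2.39%, interval 2.37% to 2.41%). Intervals cover counting error only, since amplified copies are not independent molecules. The constitutive Hsp70, Hspa8, alone accounted for 34.7% of member copies in the control and 36.8% in the RNAi library.

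To ask which members differed between the libraries, each gene's tags were set against all other tags on genes by Fisher's exact test (two-sided) and the p-values were adjusted over all 9894 genes by the Benjamini-Hochberg method (FDR). The test compares these 2 libraries and not the conditions. With the FDR at 0.05 or less and the log2 ratio at 0.58 or more in either direction, 2 of 66 members were lower in the RNAi library, Cct8 and Dnajc10, and 0 were higher. Over all genes, 5.97% were lower and 2.96% were higher by the same rule. By the FDR alone, without the ratio threshold, 10 members were lower (9.53% over all genes) and 6 were higher (7.14% over all genes). These 16 members all had at least 100 copies in both libraries together. Among the 40 members of that abundance, 10 were lower and 6 higher by the FDR, against 15.96% and 13.4% of the 4692 genes of that abundance. The median log2 ratio was -0.079 over the 64 members listed in both libraries and -0.085 over all genes listed in both. With a biological coefficient of variation of 0.1 assumed in edgeR's exact test, Cct8 stayed below an FDR of 0.05 (0.0047) and Dnajc10 did not (0.114), and with 0.2 neither did. The ratio between the libraries also varied with the last bases of a tag. With each tag's copies corrected for the median of its end, 10 members were lower and 5 higher by the FDR alone, against 6.51% and 5.33% of all genes. Of these, 5 lower members (Cct8, Dnajc10, Hsp90aa1, Hsp90ab1 and Hsph1) and 1 higher member (Dnajb2) had passed in the same direction before the correction, and Hsp90b1 passed in opposite directions. The corrected values are given with each family below.

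**Figure D1:**
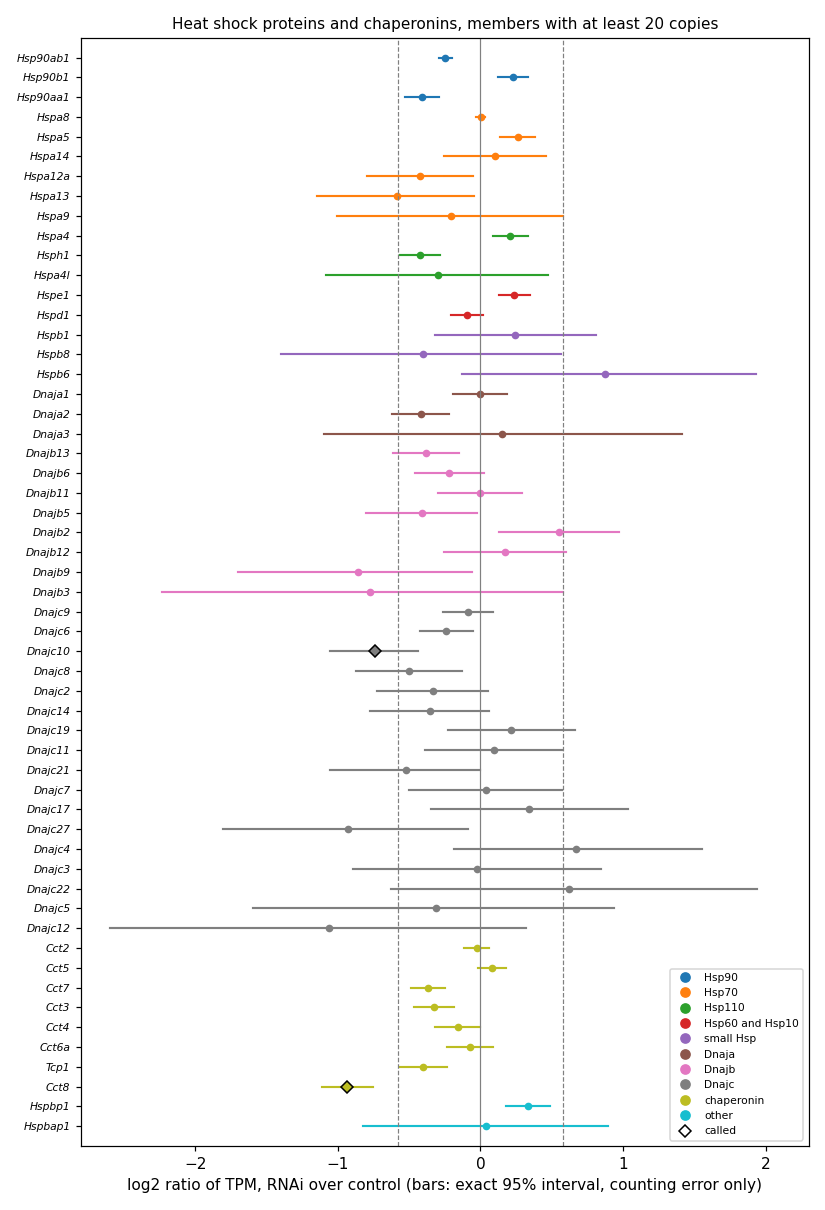
Log2 ratio of TPM (x axis, RNAi over control) for the 55 members with at least 20 copies, coloured by family, with exact 95% intervals as bars and the thresholds of -0.58 and 0.58 as dashed lines. Diamonds mark the 2 called genes, Cct8 (-0.93) and Dnajc10 (-0.74); the abundant members around Hspa8 (0.00058) have the shortest bars.

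The chaperonin TRiC held the member with the lowest FDR, Cct8. Its 8 subunits together went from 8977 copies in the control to 7696 in the RNAi library, a log2 ratio of -0.19 (95% exact interval -0.23 to -0.14). Of the 8, 7 had a ratio below 0 and the median was -0.24. Over all genes, 5045 of the 8899 listed in both libraries had a ratio below 0 and the median was -0.085. By the FDR, 4 subunits were lower (Cct8, Tcp1, Cct7 and Cct3; 15.96% of all genes with at least 100 copies were lower), none was higher, and 1 of the 4, Cct8, was also past the ratio threshold. The subunits thus did not share one ratio.

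Cct8, the theta subunit, had 760 copies in the control and 388 in the RNAi library, or 224 and 117 TPM. The log2 ratio was -0.93 (95% exact interval -1.11 to -0.76, Fisher's exact test, FDR 3.97e-23). There were 8 abundant tags, and 6 of them had fewer copies in the RNAi library. The most copied tag, at site 6, went from 302 to 114 copies, the tag nearest the 3′ end from 236 to 147, and the tag at site 7 from 106 to 40. The 2 tags that were not lower had few copies, 14 and 18 at site 8 and 10 and 10 at site 9. Lower tags at site 2 (20 and 14), site 10 (18 and 4) and site 13 (25 and 7) had similarly few. The 6 lower tags end in TT, TG or GG, ends whose median ratio over all genes lay below that of all tags. The other 2 end in CC and TC, whose medians lay above it. With its most copied tag left out, Cct8 still went from 458 to 274 copies (log2 ratio -0.71, interval -0.93 to -0.49).

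The next subunits were lower by the FDR and short of the ratio threshold. Tcp1, the alpha subunit that gave the complex its name, had 718 copies in the control and 530 in the RNAi library (log2 ratio -0.40, interval -0.57 to -0.24). Cct7 (eta) had 1374 and 1038 copies (log2 ratio -0.37, interval -0.49 to -0.25), with lower values at each of its 4 abundant tags. Cct3 (gamma) had 937 and 730 copies, a log2 ratio of -0.32 (interval -0.47 to -0.18). Its tags disagreed: the tag at site 1 went from 461 to 239 copies, while that at site 3 stood at 241 and 256 and that at site 5 at 57 and 87.

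The remaining 4 subunits did not pass the FDR. Cct2 (beta) had the most copies of the family, 2155 in the control and 2064 in the RNAi library, with a log2 ratio of -0.026 (interval -0.11 to 0.062). Cct5 (epsilon) had 1646 and 1699 copies (log2 ratio 0.082, interval -0.017 to 0.18), and all 6 of its abundant tags had ratios above 0. Cct4 (delta) had 729 and 636 copies (-0.16, interval -0.32 to -0.0055, Fisher's exact test, FDR 0.276), and Cct6a (zeta) had 658 and 611 (-0.071, interval -0.23 to 0.090). The interval of Cct8 lay wholly below the intervals of the other 7 subunits.

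The tag end moved with these ratios. Over the 16021 tags with at least 20 copies on any gene, tags ending in TG had the lowest median log2 ratio (-0.67 over 866 tags, 655 of them lower). Such tags made 10 of the 47 abundant tags of the chaperonin subunits (21.3%), against 5.41% over all genes, and 9 of the 10 were lower. The most copied tags of Cct8 and Cct3 end in TG. With copy numbers corrected for the median of each tag end, the log2 ratio of Cct8 was -0.59 and still called, that of Cct7 -0.12, of Tcp1 -0.18 and of Cct3 0.012, and the family's summed log2 ratio was -0.034. Of these 4, Cct7, Tcp1 and Cct3 no longer passed the FDR (Fisher's exact test, FDR 0.485, 0.308 and 0.742). The correction also brought other subunits past it, Cct5 (0.18, FDR 0.000374 by the same test) and Cct2 (0.085, FDR 0.0468) with higher values and Cct6a (-0.27, FDR 0.0438) with a lower one. Cct4 stood at -0.036 and did not pass. Of the 47 tags, 30 (63.8%) were lower before and 30 after the correction, beside 55.3% and 56.5% of tags over all genes. What the tag end contributed to the remaining difference was not tested.

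**Figure D2:**
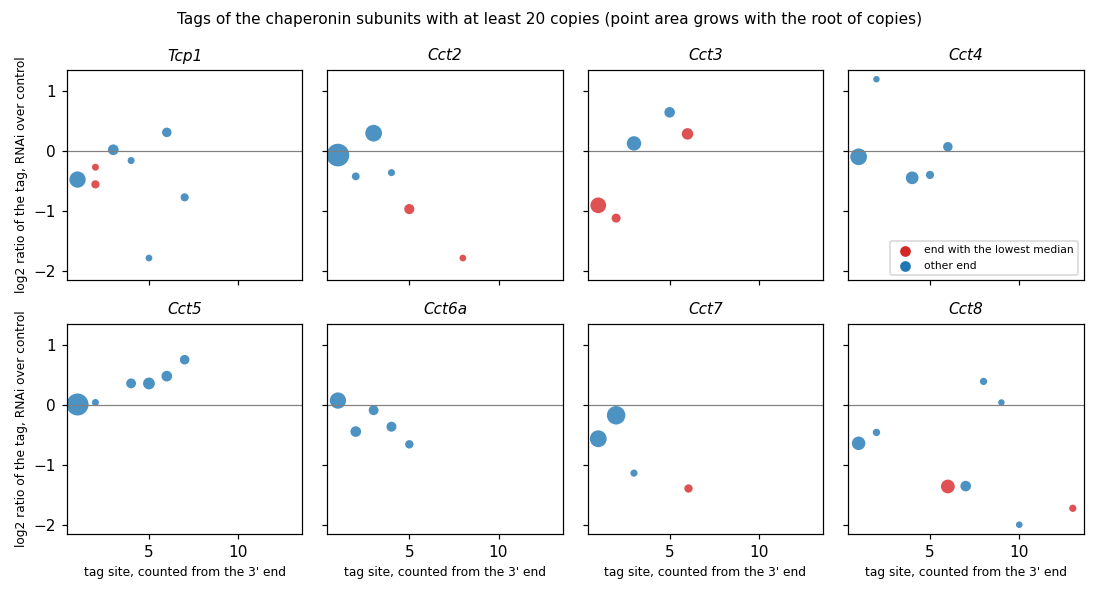
Log2 ratio (y axis, RNAi over control) of each chaperonin tag with at least 20 copies against its site counted from the 3′ end (x axis), 1 panel per subunit, with point area growing with the square root of the copies. Tags with the end of lowest median are red: 9 of these 10 lie below 0, and the most copied of Cct8 lies at -1.37, while all 6 tags of Cct5 lie above 0.

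Among the Hsp90 genes as deposited, the cytosolic pair was lower in the RNAi library and the endoplasmic reticulum form higher. The higher value of the latter rested on its site 1 tag and reversed with the tag-end correction, as described below. Hsp90ab1, the constitutive cytosolic Hsp90, had 8673 copies in the control and 7133 in the RNAi library, or 2561 and 2159 TPM (log2 ratio -0.25, interval -0.29 to -0.20, Fisher's exact test, FDR 7.40e-20). Hsp90aa1, the stress-inducible cytosolic form, had 1291 and 948 copies (log2 ratio -0.41, interval -0.53 to -0.29). Hsp90b1, also called Grp94, which resides in the endoplasmic reticulum, had 1429 and 1633 copies (log2 ratio 0.23, interval 0.13 to 0.33). All 3 passed the FDR and none the ratio threshold.

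The tags of Hsp90b1 did not share one direction. Of the abundant tags, 5 of 6 were lower for Hsp90aa1 and 9 of 12 for Hsp90ab1. The tag of Hsp90aa1 at site 2 went from 461 to 279 copies and that of Hsp90ab1 at site 1 from 7566 to 6146. For Hsp90b1, the tag at site 1, which ends in a run of A, stood at 1233 and 1496 copies, and the 4 other abundant tags had ratios below 0, from 93 to 55 copies at site 2 and from 37 to 36 at site 3. Tags within 2 mismatches of its site 1 tag were listed under 3 other genes, so its copies may not all stem from this gene. Without it, Hsp90b1 had 196 and 137 copies, a log2 ratio of -0.48 (interval -0.81 to -0.16). Once tag ends were corrected for, the log2 ratios were -0.34 for Hsp90ab1, -0.34 for Hsp90aa1 and -0.24 for Hsp90b1, a reversal for the last.

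The Hsp70 genes, 10 members of which 9 were listed in both libraries, were level in sum, with 18252 copies in the control and 17955 in the RNAi library (log2 ratio 0.012, interval -0.017 to 0.042). Hspa8, the constitutive cytosolic Hsc70, had 16816 and 16408 copies, or 4965 and 4967 TPM, a log2 ratio of 0.00058 (interval -0.031 to 0.032). Its 55 tags lay at 11 sites, and the one nearest the 3′ end held 90.4% of the copies (15071 and 14949). The upstream sites alone gave 1642 and 1357 copies (log2 ratio -0.24, interval -0.34 to -0.13), which does not overlap the interval of the site nearest the 3′ end (-0.0084 to 0.057).

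Hspa5 (BiP), the Hsp70 of the endoplasmic reticulum, was the only Hsp70 gene past the FDR, with 1035 copies in the control and 1209 in the RNAi library (log2 ratio 0.26, interval 0.14 to 0.38). Its site 1 tag stood at 817 and 984 copies and its site 2 tag at 127 and 142. Once tag ends were corrected for, Hspa5 did not pass (log2 ratio 0.10, Fisher's exact test, FDR 0.130) and Hspa8 did, with a higher value (0.12, FDR 5.52e-23). The stress-inducible pair was listed with few copies. Hspa1a was not listed in the control and had 2 copies in the RNAi library, and Hspa1b had 5 and 6. These 2 genes are near-identical in sequence, and the counts hold only tags listed under 1 gene. Tags that both genes share may therefore be missing, and neither the split nor the sum of the pair is certain. Hspa9 (mortalin), the mitochondrial Hsp70, was listed at 32 and 27 copies, Hspa13 at 74 and 48, Hspa12a at 147 and 107, and Hspa14 at 130 and 136. The others, Hspa2 and Hspa12b, had at most 10 copies per library.

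The Hsp110 exchange factors also differed in direction. Hsph1 had 980 copies in the control and 714 in the RNAi library (log2 ratio -0.42, interval -0.56 to -0.28, Fisher's exact test, FDR 6.07e-07). Hspa4 had 1011 and 1139 copies (log2 ratio 0.21, interval 0.085 to 0.33). Hspa4l had 34 and 27. The most copied tag of Hsph1 went from 815 to 595 copies, 3 of its 4 abundant tags were lower, and its corrected log2 ratio was -0.49. The corrected log2 ratio of Hspa4, whose most copied tag ends in AAA, was -0.025, which did not pass the FDR (Fisher's exact test, FDR 0.958).

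In mitochondria, Hspd1 (Hsp60) had 1387 copies in the control and 1268 in the RNAi library, a log2 ratio of -0.093 (interval -0.20 to 0.018). Hspe1 (Hsp10) had 1259 and 1447 copies, a log2 ratio of 0.24 (interval 0.13 to 0.35, Fisher's exact test, FDR 4.30e-05). The 2 partners are read from one head-to-head promoter. At its site 1 Hspe1 had 450 and 663 copies, and its other sites together had 809 and 784. The intervals of these log2 ratios do not overlap (0.42 to 0.77 and -0.15 to 0.13). Once tag ends were corrected for, Hspe1 no longer passed the FDR (log2 ratio 0.091, Fisher's exact test, FDR 0.118) and Hspd1 did, with a lower value (-0.27, FDR 0.000696). All 3 abundant tags of Hspd1 had ratios below 0, from 1201 to 1130 copies at site 1 and from 131 to 90 at site 2.

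**Figure D3:**
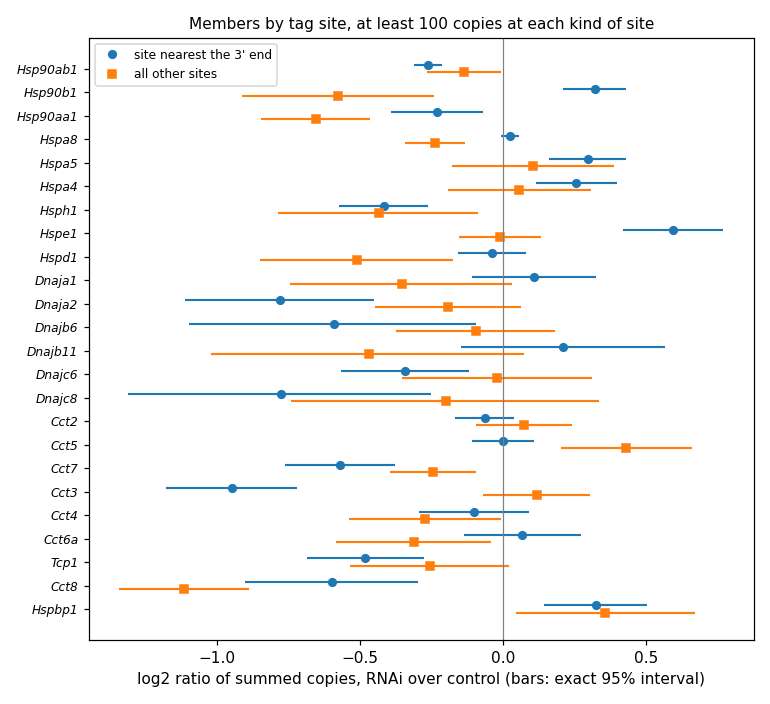
Log2 ratio (x axis, RNAi over control) for the 24 members with at least 100 copies both at the site nearest the 3′ end (circles) and at all other sites (squares), with exact 95% intervals as bars. The 2 bars do not overlap for some members, among them Hspe1 (0.60 and -0.0093), Hsp90b1 (0.32 and -0.58) and Cct3 (-0.95 and 0.12). They overlap for others, such as Hsph1 (-0.42 and -0.44). The most copied site 1 tags of Hspe1, Hsp90b1 and Cct3 end in AA, a run of A and TG. How often such bars lie apart over all genes was not computed.

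Taken by place in the cell, the 7 members of the endoplasmic reticulum considered (Hspa5, Hsp90b1, Hspa13, Dnajb9, Dnajb11, Dnajc3 and Dnajc10) did not move together. In this list, 5 had ratios below 0 and 2 above, with a median of -0.023, and by the FDR 1 (Dnajc10) was lower and 2 (Hspa5 and Hsp90b1) were higher. Over all genes, 5045 of the 8899 listed in both libraries had ratios below 0. By the FDR, 9.53% of all genes were lower and 7.14% higher, or 6.51% and 5.33% after the tag-end correction. After the tag-end correction Hspa5 (0.10) did not pass the FDR, and Hsp90b1 (-0.24) passed with a lower value. Of the 7 mitochondrial members considered, 6 were listed in both libraries, 2 with ratios below 0 and 4 above (median 0.12), and 1, Hspe1, passed the FDR. After the correction Hspe1 did not pass and Hspd1 did, with a lower value.

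Dnajc10 (ERdj5), a J-domain protein of the endoplasmic reticulum that reduces disulfide bonds of misfolded proteins, was the other called member. It had 240 copies in the control and 140 in the RNAi library, or 70.9 and 42.4 TPM, a log2 ratio of -0.74 (95% exact interval -1.05 to -0.43, Fisher's exact test, FDR 3.91e-05). All 5 of its abundant tags were lower, from 58 to 33 copies at site 3, from 49 to 31 at site 7, from 48 to 24 at site 6, from 46 to 32 at site 1 and from 21 to 12 at site 4. No single tag held more than 23.9% of its copies, and none of the 5 ends in TG. The corrected log2 ratio was -0.72 (Fisher's exact test, FDR 0.000139).

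The other Dnajc genes, of 21 in all, spread on both sides of 0. Of the 20 listed in both libraries, 11 had ratios below 0 and 9 above, and the intervals of 17 of the 21 included 0. Over all genes, 5045 of the 8899 listed in both had ratios below 0, and 7360 of 9894 intervals included 0. Dnajc9, a J-domain protein that binds histones, had the most copies, 565 in the control and 519 in the RNAi library (log2 ratio -0.0865, interval -0.26 to 0.088), and passed the FDR with a lower value only after the correction (-0.29, Fisher's exact test, FDR 0.0390). Dnajc6 (auxilin), which helps Hsc70 strip clathrin from vesicles, had 534 and 441 copies (-0.24, interval -0.43 to -0.055, Fisher's exact test, FDR 0.101). Dnajc8, found with splicing factors, had 152 and 105 copies (-0.50, interval -0.87 to -0.13, Fisher's exact test, FDR 0.0591) and was called once tag ends were corrected for (-0.64). Dnajc5 (cysteine string protein), a presynaptic chaperone, had 14 and 11 copies, too few to show a difference. Dnajc30 was listed in the RNAi library only, at 2 copies. Among the rest the log2 ratios ran from -1.06 (Dnajc12, 15 and 7 copies) to 0.67 (Dnajc4, 20 and 31 copies). Of these, the interval of Dnajc27 alone did not include 0 (37 and 19 copies, -0.93, interval -1.81 to -0.090), and it missed the FDR (Fisher's exact test, FDR 0.135).

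Of the 4 Dnaja genes, Dnaja1 had 476 copies in the control and 463 in the RNAi library, a log2 ratio of -0.0039 (interval -0.19 to 0.18). Its most copied tag ends in TG and stood at 343 and 363 copies, so that the correction raised its ratio to 0.52. Dnaja2 had 492 and 359 copies (log2 ratio -0.42, interval -0.62 to -0.22, Fisher's exact test, FDR 0.00114). Its site 1 tag went from 198 to 121 copies, while its site 3 tag stood at 166 in both libraries. Its corrected log2 ratio was -0.29 and did not pass (Fisher's exact test, FDR 0.0926), while that of Dnaja1 did (FDR 9.71e-08 by the same test). Dnaja3 had 12 and 13 copies and Dnaja4 had 2 and 4.

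Of the 10 Dnajb genes, 1 was lower and 1 higher by the FDR (9.53% and 7.14% over all genes). Dnajb2, a neuronal J-domain protein that hands clients to the proteasome, had 82 copies in the control and 117 in the RNAi library (log2 ratio 0.55, interval 0.13 to 0.97, Fisher's exact test, FDR 0.0369). It lay just short of the ratio threshold and was past it when the libraries were scaled by TMM or DESeq2 factors or when the tag end was corrected (0.94). Dnajb13, known from sperm flagella and motile cilia, had 371 and 278 copies (log2 ratio -0.38, interval -0.61 to -0.15), all at site 1. Its corrected log2 ratio was -0.23 (Fisher's exact test, FDR 0.333). Tags within 2 mismatches of its most copied tag (341 and 258 copies) were listed under 11 other genes, the most of any abundant member tag, so that its copies may not all stem from Dnajb13. Dnajb6, an inhibitor of protein aggregation, had 317 and 266 copies (-0.22, interval -0.46 to 0.023). Dnajb11 (ERdj3) had 197 and 192, and Dnajb9 (ERdj4), a target of the unfolded protein response, 39 and 21 (Fisher's exact test, FDR 0.154). Dnajb5 had 135 and 99 copies and Dnajb12 had 90 and 99. The last members, Dnajb3, Dnajb4 and Dnajb14, had at most 14 copies per library, with Dnajb4 at 2 and 9 (log2 ratio 2.21, interval -0.066 to 5.46).

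The small heat shock proteins were read at low depth. Hspb1 (Hsp27) had 52 copies in the control and 60 in the RNAi library (log2 ratio 0.24, interval -0.32 to 0.81), Hspb8 had 23 and 17, and Hspb6 had 14 and 25 (Fisher's exact test, FDR 0.249). None of the 3 passed the FDR, and the interval of each included 0. Of the genes that match the rule by symbol alone, Hspbp1, an exchange factor of Hsp70, had 617 and 758 copies (log2 ratio 0.33, interval 0.18 to 0.49, Fisher's exact test, FDR 7.46e-05). All 4 of its abundant tags had ratios above 0, and its corrected log2 ratio was 0.072, which did not pass (FDR 0.428 by the same test). Hspbap1 had 25 copies in each library.

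**Figure D4:**
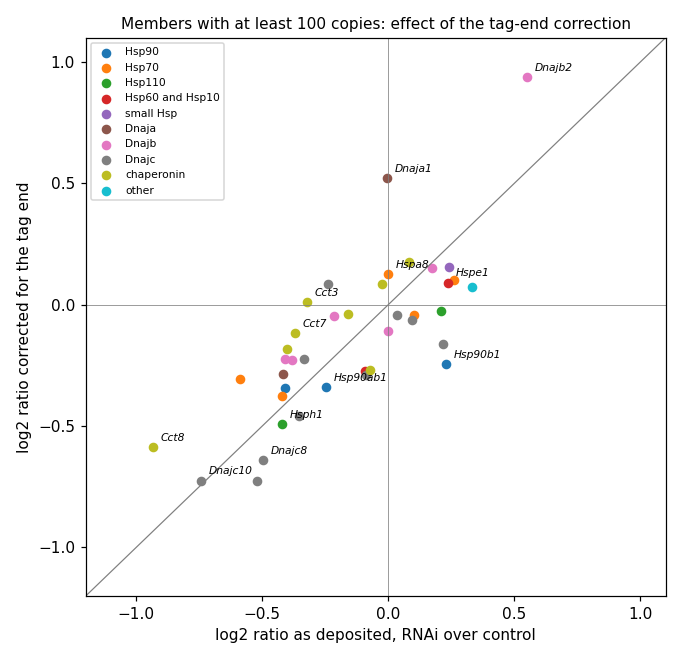
Log2 ratio after correction for the tag end (y axis) against the log2 ratio as deposited (x axis) for the 40 members with at least 100 copies, coloured by family, with the line of equality. The sign changed for 10 of the 40, among them Hsp90b1 (0.23 to -0.24), and 7 moved by more than 0.3, while Dnajc10 lay close to the line (-0.74 and -0.72).

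Heat shock genes are switched on by Hsf1 through heat shock elements, and endoplasmic reticulum chaperones through a stress element bound with the help of NF-Y. Hsf1 itself had 111 copies in the control and 125 in the RNAi library (log2 ratio 0.21, interval -0.17 to 0.59, Fisher's exact test, FDR 0.481). Both elements were searched in RefSeq promoters of build GRCr8, from 250 bases before to 50 after each start, which matched 55 of the 66 members by symbol. The heat shock element, searched as GAA, any 2 bases, TTC, any 2 bases and GAA on either strand, was in the promoters of 6 of these 55 (Cct4, Dnaja1, Hspa8, Hspd1, Hspe1 and Hsph1), 10.9%, against 0.794% of all 27457 genes with a promoter in the table. The stress element, searched as CCAAT, any 9 bases and CCACG on either strand, was in those of 3 (Hspa5, Hsp90b1 and Dnajc3), 5.45%, against 0.0765% of all. The matches below, 1 for each gene with a match before its start, are shown because they group the genes by a feature that the counts did not use. Capitals mark the motif, the strand is that of the gene, and a match is a description, not a site of binding.

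Hspa5, chr3:38452965-38452999, plus strand: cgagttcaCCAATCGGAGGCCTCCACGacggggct
Hsp90b1, chr7:23012443-23012477, minus strand: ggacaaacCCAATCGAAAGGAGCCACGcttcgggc
Dnajc3, chr15:102432526-102432560, plus strand: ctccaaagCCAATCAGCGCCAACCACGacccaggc
Hspa8, chr8:50080293-50080321, plus strand: gcgagcgtGAAAGTTCCAGAAcgctgcgg
Hspe1, chr9:64084259-64084287, plus strand: cggttctaGAACCTTCCGGAAggccccgc
Hspd1, chr9:64084254-64084282, minus strand: gccttccgGAAGGTTCTAGAAccgagcgc
Hsph1, chr12:10427324-10427352, plus strand: gccgcagaTTCTGGAAAGTTCtcctcagt

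Among the members with the stress element, Hspa5 and Hsp90b1 had log2 ratios of 0.26 and 0.23 with overlapping intervals, and Dnajc3, with 25 and 24 copies, had -0.023 (interval -0.89 to 0.85), an interval that holds both. After the tag-end correction the log2 ratios were 0.10 for Hspa5, -0.24 for Hsp90b1 and 0.029 for Dnajc3. Hspa5 and Hsp90b1 then had opposite signs. The members with the heat shock element did not share a ratio. Hsph1 was at -0.42, Cct4 at -0.16, Hspd1 at -0.093, Dnaja1 at -0.0039, Hspa8 at 0.00058 and Hspe1 at 0.24. The segments of Hspd1 and Hspe1 overlap, since these genes lie head to head.

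The chaperones work with further genes outside the rule. In a list of 51 heat shock factors, co-chaperones, prefoldin subunits and other chaperones, 43 had a value. Of these, 4 were lower in the RNAi library and 2 were higher by both thresholds, beside 5.97% and 2.96% over all genes, and the median log2 ratio was -0.074, beside -0.085 over all genes listed in both libraries. St13 (Hip), which holds Hsp70 in its substrate-bound form, had 365 copies in the control and 190 in the RNAi library (log2 ratio -0.91, interval -1.17 to -0.65, Fisher's exact test, FDR 1.23e-10), with 4 of 4 abundant tags lower. Fkbp5, an Hsp90-binding immunophilin, fell from 174 to 93 copies (-0.87), Ptges3 (p23), an Hsp90 co-chaperone, from 187 to 112 (-0.70), and Txndc9, a regulator of TRiC, from 115 to 70 (-0.68). With tag ends corrected for, St13 (-0.46) and Ptges3 (-0.33) were no longer called. Pdrg1, a prefoldin-like protein, rose from 88 to 135 copies (0.65). Unc45a, a co-chaperone for myosin, went from 147 to 416 copies (log2 ratio 1.54), but 119 and 396 of them lay on one tag that ends in 10 A, CATGtggaactAAAAAAAAAA. Without tags of that kind its log2 ratio was -0.45. No member had an abundant tag ending in 8 or more A. Stip1 (Hop), which links Hsp70 to Hsp90, had 2184 and 2160 copies (0.020, interval -0.066 to 0.11).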

How the data were processed

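The 2 libraries were used, 1 per group. Per the file headers, the authors deposited for each gene the count of its tags, the same value as TPM, and each tag with its site and copy number. The submitters' processing notes name build rn4. The program that matched tags to genes is not given in the sources used here. Every tag had at least 2 copies and was listed under 1 gene, and the copies of a gene's tags added up to its count. Counts were tested as deposited. The deposited TPM is relative to all clean tags, of which 57.5% and 56.5% were on genes.

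Symbols came from RefSeq accessions (9337 of 9894 genes) or descriptions. Fisher's exact test and exact (Clopper-Pearson) 95% intervals were used, with the study's thresholds for FDR and log2 ratio. Genes listed in 1 library passed the ratio threshold. Tag ratios had 0.5 copies added. For the tag-end correction, the median log2 ratio of tags with the same last 2 bases, or the same run of 3 to 13 A, was estimated on the other part of the genes from tags with at least 20 copies and taken out in equal parts. The test was run on simulated Poisson counts with known changes. These had no spread between cultures, no duplicate copies and no effect of the tag end, so that check does not cover them. Alternatives were TMM and DESeq2 factors, tags on genes as totals, at least 10 copies, 1 copy added, leaving out tags with 8 or more A at the end, the correction, 1 copy put back for a tag missing from 1 library, an assumed coefficient of variation of 0.1 or 0.2, a log2 threshold of 1, and summing by symbol. Named were called members, the most copied member of each family, all Hsp90, Hsp60, Hsp10 and chaperonin genes, Hsf1, and called genes of the co-chaperone list. Further members were named to account for each family, after their values were seen. The members and all lists were chosen with earlier results of these data known. Python 3.11.15, NumPy 2.4.6, pandas 2.3.3, SciPy 1.17.1, Matplotlib 3.10.9, R 4.3.3, edgeR 4.0.16 and DESeq2 1.42.0 were used.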

Additional observations from a re-analysis of the deposited data

How the results depend on the processing

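With 1 library per group, no spread between cultures was measured. No paired analysis was possible because each group had 1 library and none could be left out. The number of lower members (2) was 3 with the tag-end correction (Cct8, Dnajc10 and Dnajc8). It was 1 at an assumed coefficient of variation of 0.1 (Cct8), 0 at 0.2 and 0 with a log2 threshold of 1. By the FDR alone it was 10, and 10 by the FDR alone with the tag-end correction. These last 2 settings were chosen after seeing the data. The number of higher members (0) was 1 (Dnajb2) with TMM factors, DESeq2 factors or the tag-end correction, 6 by the FDR alone and 5 by the FDR alone with the correction. At a coefficient of 0.2, 0 members were called in either direction. Among the other chaperones, the 4 lower genes became 2 with the correction, 1 at 0.1 and 0 at 0.2. By the FDR alone they were 6, and 5 with the correction. The 2 higher genes became 3 with TMM factors, DESeq2 factors or tags on genes as totals. They became 1 without tags ending in 8 or more A, 1 with the correction, 1 at 0.1 and 0 at 0.2. By the FDR alone the higher genes were 5, with or without the correction.

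TMM factors raised every log2 ratio by 0.094 and DESeq2 factors by 0.085. The summed log2 ratio thereby became -0.10 and -0.11 for Hsp90, 0.11 and 0.10 for Hsp70, 0.17 and 0.16 for Hsp60 with Hsp10, and -0.092 and -0.10 for the chaperonin. With TMM alone it left the main interval for Hsp110 (0.023) and Dnajc (-0.12). With the tag-end correction it was -0.33 for Hsp90, 0.12 for Hsp70, -0.23 for Hsp110, -0.090 for Hsp60 with Hsp10, 0.15 for Dnaja, -0.031 for Dnajb, -0.034 for the chaperonin and 0.069 for Hspbp1 with Hspbap1. The correction removes a median per tag end, and no FDR carries its error.

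Of 280 results of 28 named genes over the alternatives, 249 kept their direction and their call by both thresholds together, 16 lost the call and 15 changed sign. Genes that crossed the FDR alone still count among the 249, such as Cct7, Tcp1, Hspe1 and Hspa8 with the tag-end correction. With at least 10 copies or an assumed coefficient of variation, only the FDR was recomputed. No sign could change in those settings, so the 249 overstate how stable the ratios were. Changes of sign with TMM were Cct2 (0.068), Cct6a (0.024), Dnaja1 (0.091), Dnajc9 (0.0080) and Hspd1 (0.0011). With DESeq2 factors they were Cct2 (0.059), Cct6a (0.014) and Dnaja1 (0.081), and with tags on genes as totals Dnaja1 (0.022). With the correction they were Cct2 (0.085), Cct3 (0.012), Dnaja1 (0.52), Hsp90b1 (-0.24) and Hspa4 (-0.025), and without tags ending in 8 or more A, Unc45a (-0.45). TMM factors, DESeq2 factors and tags on genes as totals each shift all ratios by one amount, 0.026 for the last. The sign of Unc45a changed because its tag ending in 10 A was left out. For the other settings the cause was not tested.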
